A study of Mus musculus with 6 samples.

Results

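The poly(ADP-ribose) polymerase (PARP) family and the genes that turn over its product were followed in cortical cultures after knockdown of the neuronal transcription factor Neurod2. The 10 members were Parp1, Parp2, Parp3, Parp4, Parp6, Parp8, the tankyrase genes Tnks and Tnks2, the hydrolase gene Parg and the repair scaffold gene Xrcc1. The set was chosen by the group values of Parp1, which were higher in the knockdown, and was filled with its paralogues and partners, so the change of Parp1 is given here as a description. Each member was taken as the locus whose position overlaps the annotated gene by at least 0.5 of their union, in a table of 32357 loci. All 10 members had 1 such locus, with overlaps from 0.95 (Parp3) to 1, and no other locus touched their spans.

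Primary cultures were made from the cortex of Balb/c mouse embryos at E14.5. The cell suspension was nucleofected with a shRNA plasmid and plated, so that every culture had gone through nucleofection. The 2 control libraries carried a non-silencing (NS) shRNA, and the 4 knockdown libraries carried shNeurod2-1 or shNeurod2-2, 2 libraries each. The sample labels give 4 days in vitro (DIV) for the RNA, and the study's methods give 1 day more. The authors' table holds 1 FPKM value (a read level scaled by transcript length and library size) for the NS group and 1 for the knockdown group, which pools both shRNAs. Pooled values do not show the spread between libraries, the effect of each shRNA alone or the share of cells that took up a plasmid. The labels do not say whether libraries of 1 shRNA came from separate cultures. No difference below could therefore be set against replicate error, and each is a comparison of 2 pooled values.

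PARP enzymes split NAD and transfer its ADP-ribose unit to proteins and nucleic acids. PARP1 and PARP2 bind broken DNA and build long branched chains, which recruit repair proteins such as XRCC1 and are then removed, mainly by PARG. The tankyrases also build chains, while most other family members add a single unit. In neurons the pathway is known for the repair of single-strand breaks, and for cell death when too much NAD is used up.

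Neurod2 itself was at 104.8 FPKM with the NS shRNA and at 60.3 FPKM in the knockdown, a log2 fold change of -0.80, so the transcript was lowered but not lost. Tubb3 (839 and 879 FPKM) and Map2 (302 and 346 FPKM), 2 neuronal markers, were the highest of their list in both groups. Of 5 microglial markers 2 had a single locus, Aif1 and C1qa, which summed to 0.0847 FPKM with the NS shRNA and 0.199 FPKM in the knockdown, and 2 had no locus and were not analysed here. The 3 of 4 endothelial markers with a single locus summed to 0.131 and 0.270 FPKM. The 5 listed proliferation markers had log2 fold changes from -0.17 to 0.08, Top2a going from 69.0 to 70.0 FPKM and Cdk1 from 21.5 to 20.5 FPKM. Of 21 marker genes that reached a mean of 1 FPKM, Gfap of astrocytes alone was past 1.5-fold, at 57.4 and 35.1 FPKM, while Slc1a3 of the same list was at 87.5 and 90.4 FPKM. The oligodendrocyte lineage markers had a median log2 fold change of -0.33, with Olig2 at 36.9 FPKM in both groups and Pdgfra going from 10.3 to 8.17 FPKM. The 5 fibroblast and mural markers summed to 3.58 and 4.83 FPKM, and 2 of them reached 1 FPKM, Dcn going from 1.55 to 1.56 FPKM and Pdgfrb from 1.56 to 1.38 FPKM. Below that minimum, the collagen genes Col1a1 (0.125 and 0.975 FPKM) and Col3a1 (0.171 and 0.765 FPKM) were higher in the knockdown, and Lum was at 0.165 and 0.138 FPKM. The part of the glial and collagen differences in the values of the members was not tested. In such bulk cultures fewer cells of a type and less RNA per cell cannot be told apart.

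Parp1 encodes the most abundant and best studied enzyme of the family, a sensor of DNA strand breaks. Its level was 54.0 FPKM with the NS shRNA and 347 FPKM in the Neurod2 knockdown. This is a difference of 294 FPKM, a change of 6.44-fold and a log2 fold change of 2.69. Of 12624 loci above 0 in both groups and with a mean of at least 1 FPKM, 9 had a higher log2 fold change than Parp1, and 16 had a larger difference in FPKM. Parp1 stood at percentile 87.3 of these loci by its level with the NS shRNA and at percentile 98.6 in the knockdown. With Parp1 included, the NS level of 843 loci lay from 20% below to 25% above that of Parp1. Of these, 8 were higher in the knockdown by more than 1.5-fold, again with Parp1 among them, and 1 by more than Parp1. The middle 95% of these loci lay between log2 fold changes of -0.54 and 0.23.

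In GRCm38 Parp1 occupies positions 180568924 to 180601254 of chromosome 1, on the plus strand and is 32.3 kb long. Its principal transcript, of 3873 bases, has 23 exons, all with coding sequence. Parp1 was the only member with a microRNA gene inside its locus, Mir6904, which lies on the same strand from 180587201 to 180587267, 18.3 kb from the start of the gene. The hairpin of 67 bases sits across the end of intron 8 (1270 bases), sharing 60 bases with the intron and the last 7 with exon 9. The sequences are shown because the deposited value of Parp1 belongs to a locus that contains this hairpin. That locus is listed with 1 transcript, and Mir6904 was placed in it by annotation. The table does not separate reads of the microRNA gene from those of its host. The hairpin is given from RefSeq (GRCm38.p6) with the exonic bases in capitals, the mature microRNAs with their seed (bases 2 to 8) in capitals, and the spliced junction of exons 8 and 9 (GENCODE M21) with the bases that the hairpin shares in capitals.
Mir6904 hairpin: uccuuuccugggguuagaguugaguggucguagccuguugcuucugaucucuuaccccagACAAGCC
mmu-miR-6904-5p: uCCUGGGGuuagaguugagugg
mmu-miR-6904-3p: uCUGAUCUcuuaccccag
Parp1 exon 8 to exon 9 junction: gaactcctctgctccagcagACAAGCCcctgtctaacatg
The 3p microRNA ends with the last base of intron 8, and its final ag is the splice acceptor of exon 9. In the spliced transcript the 7 shared bases directly follow exon 8, so a read of the mature mRNA can cover no more than these bases of the hairpin.

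**Figure D1:**
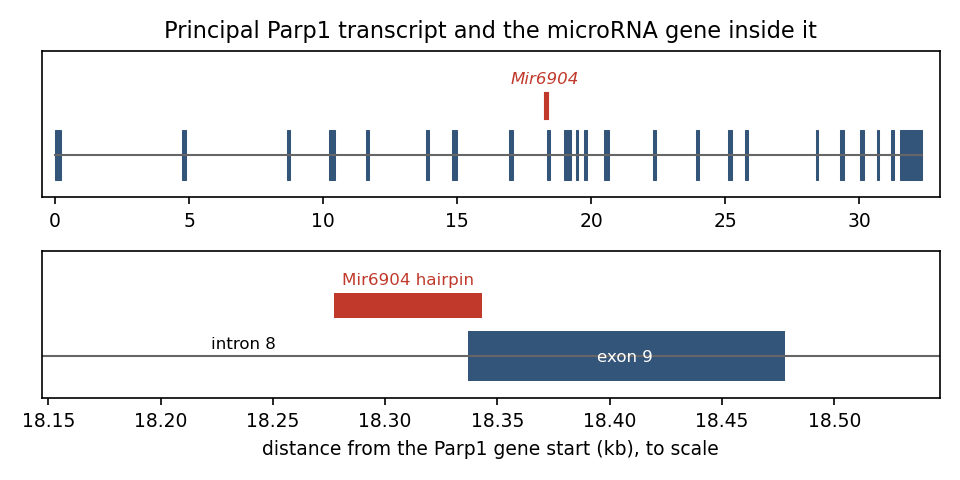
Principal Parp1 transcript drawn to scale along the distance from the gene start (kb), in full above and around exon 9 below. Blue boxes are the 23 exons, the gray line the introns, and the red box is the Mir6904 hairpin, which runs from intron 8 into the first 7 bases of exon 9.

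Loci with a microRNA gene inside were set beside all loci, since Parp1 is one of them. Among the 12624 loci, 1226 (9.71%) hold an annotated microRNA gene. In the knockdown 1.35% of all loci were higher by more than 1.5-fold and 2.09% were lower, against 4.16% higher and 8.16% lower among those with a microRNA gene. Of 20 loci more than 4-fold higher, Parp1 included, 13 hold a microRNA gene, and so do 8 of the 9 with a higher log2 fold change than Parp1. The part of the microRNA gene in the value of Parp1 was not tested.

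Parp2 encodes the closest relative of PARP1, which is also switched on by DNA breaks and adds to the chains that PARP1 makes. It lies on chromosome 14 from 50807841 to 50821301, and its level was 14.9 FPKM with the NS shRNA and 14.7 FPKM in the knockdown, a log2 fold change of -0.02. The level of Parp1 was 3.62 times that of Parp2 with the NS shRNA and 23.6 times in the knockdown, and nearly all of this shift came from Parp1. Parp3, on chromosome 9 from 106470322 to 106476949, encodes a break-activated enzyme that adds single ADP-ribose units. Parp3 went from 1.40 to 1.83 FPKM, a log2 fold change of 0.39, the largest of the members after Parp1 among those with a mean of at least 1 FPKM. It is also the lowest of them, and with a pseudocount of 1 FPKM its log2 fold change was 0.24. By annotation the Parp3 gene shares 987 bases with Rrp9 on the opposite strand, and without strand the reads of these bases cannot be told apart. The only locus touching the Parp3 span was its own, which concerns the bounds of the loci and not the reads. The part of Rrp9 reads in the value of Parp3 was not tested. Rrp9 went from 20.7 to 18.4 FPKM, a log2 fold change of -0.17.

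The tankyrase genes were the most highly expressed members with the NS shRNA. Tankyrases mark proteins such as AXIN1 for destruction and act at telomeres and on the mitotic spindle. Tnks, on chromosome 8 from 34826460 to 34965690, was at 75.7 FPKM in both groups. By annotation its locus overlaps a long noncoding RNA gene. Tnks2, on chromosome 19 from 36834232 to 36893477, went from 66.9 to 68.4 FPKM, a log2 fold change of 0.03. Together the pair summed to 143 FPKM under the NS shRNA and 144 FPKM after knockdown.

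Parp4, Parp6 and Parp8 encode members that are not switched on by the DNA binding domain of PARP1. PARP4 is a component of vault particles, and PARP6 and PARP8 are enzymes that add single units and whose roles are less known. Parp4 (chromosome 14, from 56575619 to 56659794) was barely detected, at 0.127 FPKM with the NS shRNA and 0.167 FPKM in the knockdown. It was the one member under the minimum of 1 FPKM, and its gene overlaps an antisense gene, as does that of Parg. Parp6 (chromosome 9, from 59617284 to 59650285) was the highest of these, at 44.9 FPKM with the NS shRNA and 45.7 FPKM in the knockdown, a log2 fold change of 0.03. Parp8 (chromosome 13, from 116854820 to 117025537) went from 13.4 to 15.1 FPKM, a log2 fold change of 0.16, and spans 170.7 kb, more than any other member. The absolute log2 fold change of Parp8 was at percentile 69.9 of all loci.

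Neither of the genes that act on the product of PARP1 differed by more than 10% between the groups. Parg, on chromosome 14 from 32201949 to 32297550, encodes the hydrolase that takes the chains apart, and its level was 23.9 FPKM in both groups. Besides the antisense gene, its locus overlaps processed pseudogenes by annotation. Xrcc1, on chromosome 7 from 24546289 to 24573440, encodes the scaffold that the chains bring to single-strand breaks, and its level went from 10.9 to 9.83 FPKM, a log2 fold change of -0.15 and the lowest of all members. In absolute size this was at percentile 64.8 of all loci.

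**Figure D2:**
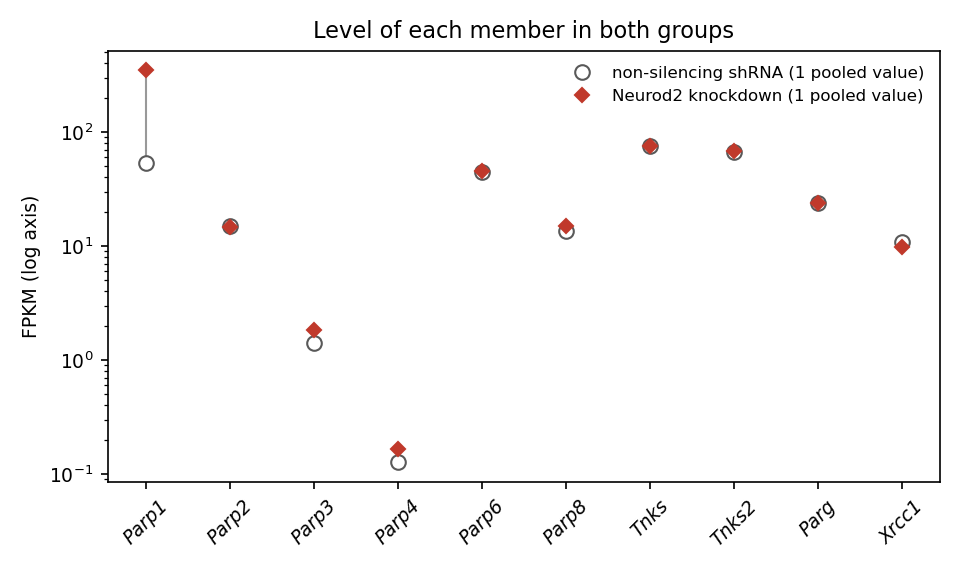
Level of the 10 members (FPKM, vertical log axis) with the non-silencing shRNA (open circles) and in the Neurod2 knockdown (red diamonds), 1 pooled value per group, so no error bars can be drawn. Parp1 went from 54.0 to 347 FPKM, while the symbols of Tnks, Tnks2, Parp6, Parg and Parp2 lie on each other.

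Of 9 members at the minimum, 1 was higher by more than 1.5-fold, Parp1 itself, and none was lower. The share of all loci past this fold was 1.35% in the upward and 2.09% in the downward direction, and nothing is read from the count of members, since Parp1 chose the set. Of the other 8 members, 5 were higher and 3 lower in the knockdown, 6 differed by less than 10% and 7 by less than 15%. The median log2 fold change of the 9 members was 0.03, and that of all 12624 loci was -0.03, with the middle 95% of loci between -0.52 and 0.43, a range that held all 8 members other than Parp1.

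The order of the levels changed at 2 places. With the NS shRNA it ran from Tnks, Tnks2, Parp1, Parp6 and Parg to Parp2, Parp8, Xrcc1, Parp3 and Parp4. In the knockdown Parp1 stood first, at more than the summed 255 FPKM of all other members, and Parp8 stood above Parp2, at 15.1 against 14.7 FPKM. Whether such close neighbours differ beyond the spread between libraries cannot be told. All 10 members summed to 306 FPKM with the NS shRNA and to 603 FPKM after knockdown, of which Parp1 made up 17.6% and 57.7%. Without Parp1 the sums were 252 and 255 FPKM.

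**Figure D3:**
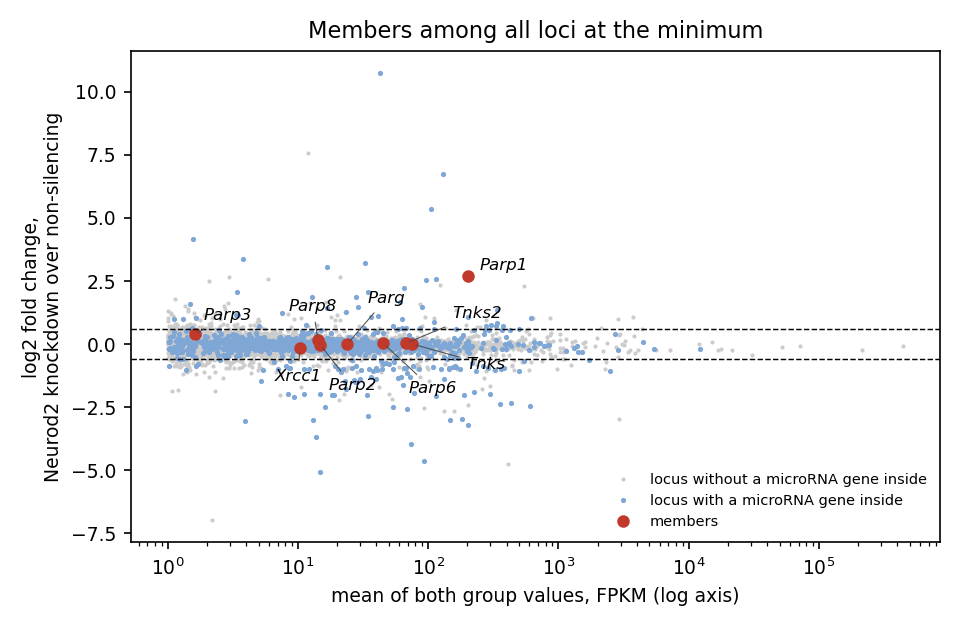
Log2 fold change (knockdown over non-silencing, vertical axis) against the mean of both group values (FPKM, horizontal log axis) of 12624 loci. Blue points hold a microRNA gene, gray points do not, red circles are the 9 members at the minimum, and dashed lines mark 1.5-fold; Parp1, at a log2 fold change of 2.69, is the only member outside them.

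To see whether the wider pathway moved, 5 lists of related genes were examined, 53 genes in all. Of these, 33 had a single locus and 28 reached the minimum. None of the 28 was past 1.5-fold, against 1.35% of all loci higher and 2.09% lower. At such shares a set of 28 genes could well hold none, so nothing is read from the count. Their log2 fold changes lay between -0.33 and 0.38, 9 above and 19 below 0, with a median of -0.09. Over all loci the median was -0.03 and 41.6% were above 0, so a lean below 0 was common to the table. Another 13 genes had several loci at 1 position, and none of their 19 loci at the minimum was past 1.5-fold. The remaining 7 genes had no locus of sufficient overlap and were not analysed here.

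Among 3 other PARP paralogues with a single locus, Parp11 went from 17.8 to 16.6 FPKM and Parp16, an enzyme of the endoplasmic reticulum, from 1.56 to 1.54 FPKM. Tiparp, Parp9 and Parp14, members known for their response to xenobiotics or interferon, had several loci each. The highest of 3 Parp9 loci went from 29.5 to 37.0 FPKM, a log2 fold change of 0.32, and the higher of 2 Tiparp loci from 16.7 to 17.8 FPKM, while both Parp14 loci were below 1 FPKM. Of the hydrolases, readers and cofactors, 6 reached the minimum, with a median log2 fold change of -0.05. Hpf1, the cofactor that directs PARP1 and PARP2 to serine residues, was at 25.4 FPKM with the NS shRNA and 26.6 FPKM in the knockdown. Adprhl2, the hydrolase that takes the last unit off serine, was at 24.9 and 22.5 FPKM.

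For base excision and single-strand break repair, 8 genes reached the minimum, with a median log2 fold change of -0.11. The clamp gene Pcna, which is also a marker of dividing cells, was at 54.2 and 53.9 FPKM, and the flap nuclease gene Fen1 at 18.10 and 15.73 FPKM. Genes of NAD supply and other NAD consumers had a median log2 fold change of 0.00 over 6 genes. Nmnat2, the NAD-making enzyme of axons, went from 46.3 to 48.2 FPKM, and Sarm1, an NAD-splitting enzyme of axon breakdown, from 12.6 to 12.2 FPKM. The highest log2 fold change was that of Nmnat1, the nuclear NAD-making enzyme, at 0.38, from 3.003 to 3.905 FPKM. Nmnat1, Tiparp, Parp9, Parp14, Rrp9 and the markers Slc1a3, Aif1, C1qa, Col1a1, Col3a1 and Lum were named after their values had been seen. Of 5 partners of the tankyrases at the minimum, Numa1 of the spindle went from 22.1 to 20.8 FPKM and Axin1 of the Wnt pathway from 12.82 to 11.97 FPKM, with a median of -0.10 for the list.

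**Figure D4:**
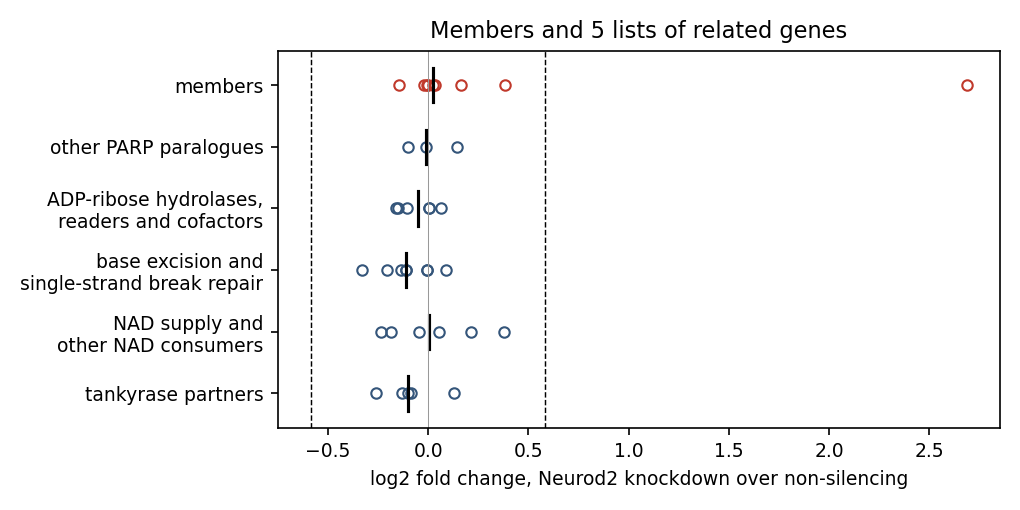
Log2 fold change (knockdown over non-silencing, horizontal axis) of the members (red) and of 5 lists of related genes (blue), 1 circle per gene with a single locus at the minimum. Black bars are list medians and dashed lines mark 1.5-fold; the circle of Parp1 at 2.69 is the only one beyond them.

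The loci next to Parp1 on chromosome 1 were compared to see how far along the chromosome the difference reached. The nearest locus upstream with a mean of at least 1 FPKM, Stum, ends 85.5 kb before Parp1 and went from 7.80 to 7.24 FPKM. The nearest downstream, Lin9, starts 39.9 kb after it and went from 6.49 to 6.85 FPKM. H3f3a, the histone gene 201 kb downstream, was at 112 and 113 FPKM. Over the 4 nearest loci on each side, log2 fold changes lay between -0.22 (Sde2) and 0.11 (Psen2), and none was past 1.5-fold. Over all loci 1.35% were past this fold upward and 2.09% downward, so most sets of 8 loci would hold none. The difference of Parp1 was not shared by these 8, and nothing further is read from the count.

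**Figure D5:**
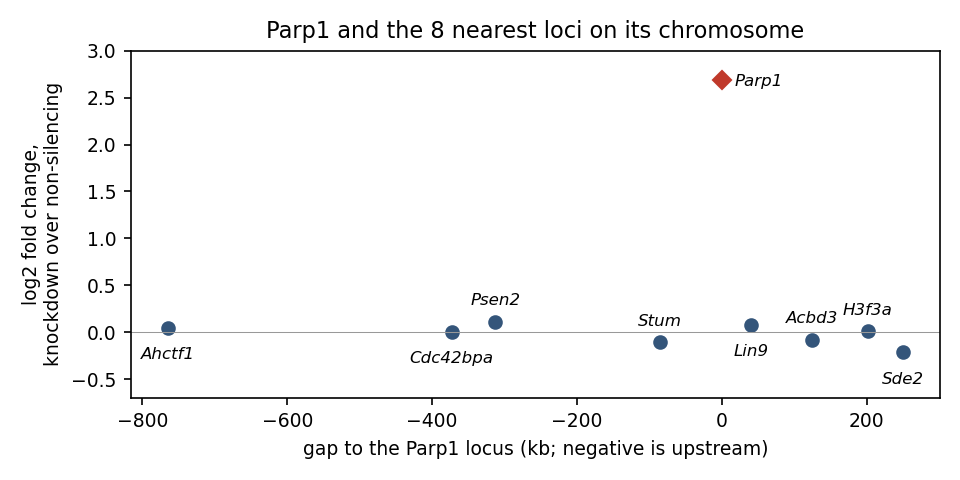
Log2 fold change (knockdown over non-silencing, vertical axis) of Parp1 (red diamond) and of the 4 nearest loci at the minimum on each side (blue circles), against the gap to the Parp1 locus (kb, horizontal axis). Parp1 stands at 2.69 and its 8 neighbours between -0.22 and 0.11.

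NEUROD2 is a basic helix-loop-helix factor that binds E-boxes, so the promoters of the members were searched for the letters CAGATG, its reverse complement CATCTG and the palindrome CAGCTG, which covers both strands. The windows were those of RefSeq (GRCm38.p6), 250 bases before to 50 after a gene start. Of 32851 such windows, 30.6% held at least 1 of these motifs. Windows were found for 9 of the 10 members, and those of Parp3, Parp4, Parp8 and Xrcc1 held a motif. The Xrcc1 window, from 24546449 to 24546748, lies inside the gene span given above, because its RefSeq start differs from that of GENCODE. The window of Parp1 is shown as that of the member that differed most, and it held none. The window of Parp8 is shown beside it as the one with the most matches, 2, which stand in capitals.
Parp1, chr1:180568641-180568940, plus strand: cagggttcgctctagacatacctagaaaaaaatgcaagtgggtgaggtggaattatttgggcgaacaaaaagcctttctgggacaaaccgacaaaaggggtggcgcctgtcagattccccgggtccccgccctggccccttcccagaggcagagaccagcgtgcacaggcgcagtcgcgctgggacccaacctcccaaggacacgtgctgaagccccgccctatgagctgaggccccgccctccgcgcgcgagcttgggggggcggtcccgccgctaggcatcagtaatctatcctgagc
Parp8, chr13:117025482-117025781, minus strand: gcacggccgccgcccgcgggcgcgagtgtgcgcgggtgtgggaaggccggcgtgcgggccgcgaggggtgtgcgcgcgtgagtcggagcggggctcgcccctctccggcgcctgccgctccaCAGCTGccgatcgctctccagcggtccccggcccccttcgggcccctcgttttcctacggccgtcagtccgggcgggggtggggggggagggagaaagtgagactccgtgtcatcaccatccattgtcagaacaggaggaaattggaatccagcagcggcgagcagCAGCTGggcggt
Both windows are rich in G and C, with 62.0% in Parp1 and 72.3% in Parp8, against a median of 52.7% over all windows. A match is a description of the letters, and sites outside these windows were not searched. The study's authors report that most NEUROD2 binding sites lie at distant elements and not at promoters. Other E-box sequences, such as the CACGTG in the Parp1 window, were not counted.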

How the data were processed

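RNA was sequenced as single-end reads of 50 bp. Mapping to mm10 (TopHat), transcript assembly (Cufflinks) and the comparison of groups (Cuffdiff) were done by the authors, as the submitters' processing notes and the study's methods state; versions were not given in the sources used here. In the deposited table each locus has 1 FPKM value per group. Depth is unknown. Its other columns hold the authors' own log2 fold changes, test statistics, p-values and q-values, none of which is reported.

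A spreadsheet had turned cells of 5029 loci into times. Each such cell was replaced by the number that gives that time and whose ratio matched the deposited log2 value within 2e-05, the only use made of that column. This restored 4936 loci, 5 of them members (Parp2, Parp3, Parp8, Parg and Xrcc1), and left 93 open. The step was tested on simulated data whose levels did not reach down to that of Parp3.

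Loci were named by overlap with GENCODE M21 genes (GRCm38, the assembly of mm10; at least 0.5 of the union). Fold changes are ratios of group values with no pseudocount, for loci above 0 in both groups and with a mean of at least 1 FPKM. With 1 value per group no test was possible, and changes of over 1.5-fold were counted. Alternatives were a pseudocount, other minimums, folds and overlaps, centring on the median, tested loci only, and leaving out altered cells or loci with a small RNA gene. The members and lists were chosen with earlier results of these data known. Named genes are the members, Neurod2, the neighbours of Parp1 and, in each list, genes past 1.5-fold or else the 2 with the highest mean; any other is said to have been named after its values were seen. The values of 1 listed gene are not reported here. The reference sequences printed are not of Balb/c. Python 3.11.15, pandas 2.3.3 and numpy 2.4.6 were used.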

Additional observations from a re-analysis of the deposited data

How the results depend on the processing

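No paired analysis was possible because the table holds 1 pooled value per group, and for the same reason leaving out single libraries was not run. The log2 fold change of Parp1 was 2.66 with a pseudocount of 1 FPKM and 2.72 after centring on the median. The other alternatives that included it use the same ratio of 2 pooled values, so they could not move it from 2.69. No member was lower past the fold limit in any of the 11 alternatives, which include limits other than 1.5-fold. Most of them reuse the same ratios of pooled values, so this count could hardly move. The median of the members lay between 0.01 and 0.06. Leaving out loci with a small RNA gene, which removes Parp1, left 0 members past 1.5-fold. Of the 10583 loci that remained, 103 were higher and 135 lower, against 171 and 264 of 12624. At a fold limit set 25% above 1 instead of 1.5-fold, 2 members were higher (Parp1 and Parp3). Of 12624 loci, 519 were then higher and 708 lower, and at a fold over 2 there were 73 and 100. With no minimum, 1520 of 18499 loci were higher and 1500 lower, and with a mean of at least 5 FPKM, 84 of 9486 were higher. Parp3 had a log2 fold change of 0.24 with a pseudocount of 1 FPKM, and Parp4, which is under the minimum, had 0.39 without one. Depth is unknown, so what it limits could not be measured.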

Other observations

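The seed of mmu-miR-6904-5p, whose gene lies inside Parp1, is shared by 1 other of 1679 mature mouse microRNAs in the RefSeq table, mmu-miR-6914-5p, and that of mmu-miR-6904-3p by none. The gene of the former, Mir6914, lies on chromosome 10 inside Ankrd52, where the table has 2 loci. The value of 1 locus went from 139 FPKM with the NS shRNA to 8.84 FPKM in the knockdown. That of the other went from 264 FPKM to a listed 0, while Parp1, chosen for its rise, was higher. Among loci at the minimum with a microRNA gene inside, 4.16% were higher and 8.16% lower by more than 1.5-fold. A value of 0 in 1 group alone was listed for 3148 of the 32357 loci. That count takes loci of any level, so it does not show how often a locus at 264 FPKM is listed at 0. The pair was noticed after the values had been seen, and a link between the 2 hosts was not tested. The levels of the mature microRNAs were not measured. The shared seed is in capitals.
mmu-miR-6904-5p: uCCUGGGGuuagaguugagugg
mmu-miR-6914-5p: uCCUGGGGuggugguggccacaga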
